A study of Mus musculus with 6 samples.

Results

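Primary fibroblasts of mouse embryos homozygous for a deletion of exon 2 of Cas were compared with fibroblasts of wild-type embryos. The comparison used the 2 arrays titled as homozygous deficient and the 2 titled as wild type, which were 4 of the 6 arrays of the series, and took in every probe set that was not a control. The other 2 arrays held heterozygous cells. They entered the estimate of the spread and are given beside the others, but not compared for their own sake. Wild type stands for Cas exon 2+/+, heterozygote for Cas exon 2+/∆ and homozygote for Cas exon 2∆/∆. Heterozygous parents were mated, and the embryos were taken at 12.5 days post coitum. Heads and inner organs went to genotyping and what was left of each embryo was put into culture in Dulbecco's modified Eagle's medium with fetal calf serum, penicillin and streptomycin. The strain is given as B6 for every sample but wild type 1, whose label names none. Each array received 2 µg of total RNA, with 2 embryos per genotype. The deletion was inherited, so it was carried by every cell of a homozygous culture, and such a culture can hold any cell type of the trunk and limbs that survives plating. P-values reflect how much embryos and cultures of 1 genotype vary, and the number of arrays limits the precision.

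Cas (p130Cas, gene symbol Bcar1) is a docking protein with no enzyme activity of its own. When integrins bind the matrix, focal adhesion kinase and Src-family kinases phosphorylate it, and the adaptors Crk and Crkl then bring in exchange factors that switch on small GTPases such as Rac and Rap. In fibroblasts this chain is known for its part in spreading, migration, actin stress fibre formation and the sensing of stretch.

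Each value below is a level on the log2 scale, from the deposited probe set intensity plus 1.78, after quantile normalization, unless it is called a difference. A difference is the homozygote mean minus the wild-type mean, with its standard error (SE) from limma. A gene is its probe set with the highest mean over the 6 arrays. The arrays of a gene are said not to overlap where both homozygote arrays lay above both wild-type arrays, or both below. Over all 11373 genes tested, the arrays did not overlap for 1421 genes higher in homozygotes (12.5%) and for 1630 genes lower in homozygotes (14.3%). The group mean was higher in homozygotes for 47.5% of the genes and lower for 52.5%, and the median difference was -0.02. These are the shares against which the counts of each gene group are to be read.

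The cultures expressed fibroblast markers, some at steady and some at varying levels. Collagen genes Col1a1, Col1a2 and Col3a1 lay between 11.83 and 13.57 on all 6 arrays, the filament protein vimentin (Vim) between 13.68 and 13.81, and fibronectin (Fn1) between 13.18 and 13.34. Thy1 lay between 11.50 and 12.38, S100a4 between 12.63 and 13.03, Prrx1 between 10.38 and 11.59, and Pdgfrb between 10.30 and 11.82. Dcn, from 8.76 to 12.11, and Pdgfra varied more. Pdgfra lay at 6.80 and 8.45 in wild type, 8.84 and 9.38 in the heterozygotes, and 10.44 and 8.32 in homozygotes. Wild type 1 stood apart from the rest, since 274 genes were at least 1 log2 unit lower there than on each of the other 5 arrays, against between 11 and 47 on the other arrays, and 88 were at least 1 unit higher. Homozygote 1 was next, with 88 genes at least 1 unit above the other 5 arrays. Sex-linked genes differed too, and the labels give no sex. Xist, which is expressed from the inactive X chromosome of females, lay at 8.82 and 4.23 in wild type 1 and 2, at 10.27 and 10.29 in the heterozygotes, and at 3.70 and 5.31 in homozygotes 1 and 2. The Y-linked Eif2s3y lay at 3.61 and 8.37 in wild type 1 and 2, at 1.24 and 1.70 in the heterozygotes, and at 8.76 and 8.61 in the homozygotes. Wild type 2 thus had the pattern of both homozygotes and wild type 1 the pattern of both heterozygotes. For this reason differences are also given against wild type 2 alone, which leaves out the wild type that stood apart and that differed from the homozygotes in these genes. Those 2 properties of wild type 1 cannot be told apart.

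No probe set passed the test. Limma called 0.0% of 22519 probe sets at an adjusted p under 0.05. The smallest adjusted p was 0.717, for a probe set that is not the one standing for a gene here. Without adjustment, p was under 0.05 for 441 probe sets that were higher in homozygotes (1.96%) and 414 that were lower (1.84%). Counted by gene these were 189 higher (1.66%) and 184 lower (1.62%). For probe sets and for genes, both directions together made up a smaller share than the 0.05 such a threshold would pass with no difference. The array left out moved the probe set counts, to 375 higher and 223 lower without wild type 1, 1362 and 815 without wild type 2, 176 and 304 without homozygote 1, and 1021 and 1002 without homozygote 2. Without quantile normalization the unadjusted counts were 497 higher and 246 lower, and with arrays scaled to 1 median they were 551 higher and 321 lower, so the split between the directions depended on the scaling. Over all tested probe sets, the 2 wild-type arrays differed from each other by a median of 0.34 and the 2 homozygote arrays by 0.32. The group means, each an average of 2 arrays, differed by a median of 0.22. All values for single genes below are therefore descriptions of these 4 cultures, and for every gene tested the limma adjusted p was 0.84 or more.

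**Figure D1:**
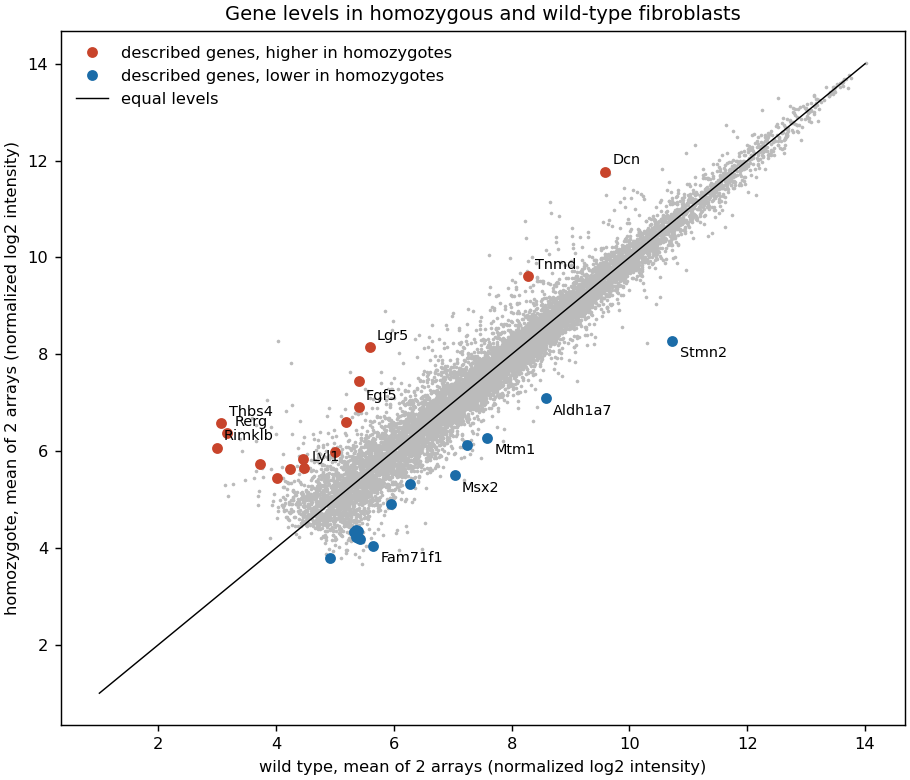
Mean level of each of the 11373 tested genes in the 2 wild-type arrays (horizontal axis, normalized log2 intensity) and the 2 homozygote arrays (vertical axis, same scale). Grey points are all genes, red and blue points the 15 described genes in each direction, and the line marks equal levels. Most genes lie close to the line, Stmn2 lies farthest below it among the bright genes, and Thbs4, Rerg and Rimklb lie above it at low wild-type levels.

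Bcar1 itself, the targeted gene, did not tell homozygotes from wild type. Its level was 9.37 and 8.42 in wild type 1 and 2, 8.19 and 8.32 in the heterozygotes and 8.08 and 8.43 in homozygotes 1 and 2. Only wild type 1 stood above the others, and the arrays of the 2 genotypes overlapped, since homozygote 2 lay just above wild type 2. The difference was -0.64 (SE 0.35), and -0.17 against wild type 2 alone. A second Bcar1 probe set gave -0.50. The sources used here do not place these probe sets relative to exon 2, so their levels are no check of the deletion. Efs, a Cas family member with the same docking architecture, had a difference of -0.02 (SE 0.24), and the sign of that difference turned with the array left out. Its second probe set gave -0.46. The chemokine receptor Cxcr4 was too dim to be tested, at 1.35 and 4.45 in wild type and 4.96 and 5.02 in homozygotes.

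Stmn2 had the smallest p-value of the named genes. It encodes a stathmin family protein that destabilizes microtubules and is best known from growing axons. Its level was 10.82 and 10.64 in wild type, 10.19 and 10.77 in the heterozygotes, and 8.46 and 8.08 in homozygotes. Both homozygote cultures thus lay more than 2 log2 units below both wild-type cultures, and the heterozygotes lay with the wild type. The level was 5.52-fold lower in homozygotes (difference -2.46, SE 0.29, 95% interval -3.16 to -1.77, limma adjusted p = 0.84). It was -2.38 against wild type 2 alone and -2.66 with homozygote 2 alone, and -2.35 by a further probe set of the gene.

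Fgf5, a secreted fibroblast growth factor that ends the growth phase of hair follicles, had the smallest p-value among genes higher in homozygotes. It lay at 5.51 and 5.29 in wild type, 5.79 and 5.74 in the heterozygotes, and 6.87 and 6.95 in homozygotes. The difference was 1.51 (SE 0.21, 2.85-fold, 95% interval 0.99 to 2.03, limma adjusted p = 0.946). It was 1.62 against wild type 2 alone, so it did not rest on wild type 1, and a dimmer Fgf5 probe set gave 1.33.

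A gap of at least 1 log2 unit between the arrays of both genotypes was seen for 11 genes higher in homozygotes (0.0967%) and 7 lower (0.0615%). These counts were 8 and 3 with a pseudocount of 16, 133 and 193 with no intensity filter, and 3 and 2 among the brightest 25% of probe sets. With 1 array left out they were 48 and 28 without wild type 1, 408 and 157 without wild type 2, 28 and 74 without homozygote 1, and 247 and 176 without homozygote 2. Besides Fgf5, the higher genes were Thbs4, Rerg, Rimklb, Egfl6, Lgr5, Ppargc1b, Lyl1, Lpl, Dcn and Dock10. Besides Stmn2, the lower ones were Fam71f1, Mtm1, Aldh1a7, Dnajc28, Hoxc5 and the predicted gene Gm20324. Egfl6, a secreted epidermal growth factor repeat protein of the matrix, had the largest difference of all tested genes. It lay at 1.77 and 6.30 in wild type, 7.99 and 7.64 in the heterozygotes, and 8.85 and 7.70 in homozygotes (difference 4.24, SE 1.34). The value of 1.77 in wild type 1 made up much of that difference, since wild type 2 lay only 1.39 below the nearer homozygote.

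Several of the higher genes belong to the matrix or to receptors and signalling. Thbs4, an adhesive glycoprotein of tendon and muscle matrix, lay at 2.39 and 3.76 in wild type, 6.16 and 4.23 in the heterozygotes, and 7.22 and 5.94 in homozygotes (difference 3.51, SE 0.78). Decorin (Dcn), a small proteoglycan that binds collagen fibrils, lay at 8.76 and 10.42 in wild type, 10.93 and 11.01 in the heterozygotes, and 12.11 and 11.44 in homozygotes (2.19, SE 0.55). Lgr5, a receptor for R-spondins that amplifies Wnt signalling, lay at 4.84 and 6.34 in wild type, 8.02 and 7.23 in the heterozygotes, and 8.71 and 7.57 in homozygotes (2.55, SE 0.61). The Thbs4 difference was 2.26 with a pseudocount of 16, and its wild-type levels were dim. In all 3 genes wild type 1 was the lowest of the 6 arrays and the heterozygotes lay above both wild types. Against wild type 2 alone the differences were 2.82 for Thbs4, 1.35 for Dcn and 1.80 for Lgr5.

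Further genes with higher levels had other roles. Rimklb, a ligase that makes N-acetylaspartylglutamate, lay at 2.55 and 3.42 in wild type and 6.95 and 5.18 in homozygotes (3.08, SE 0.61). Rerg, a small GTPase of the Ras family, lay at 1.85 and 4.49 in wild type and 6.42 and 6.32 in homozygotes (3.20, SE 0.77, 1.89 against wild type 2 alone). Dock10, a distant relative of the Cas partner Dock1, lay at 4.92 and 5.88 in wild type and 8.01 and 6.88 in homozygotes (2.05, SE 0.46). With a pseudocount of 16 the differences were 1.90 for Rimklb and 1.93 for Rerg, both dim in wild type. The heterozygotes lay nearer to the homozygotes than to the wild type in these 3 genes, at 5.93 and 6.44 for Rimklb, 5.67 and 5.82 for Rerg, and 6.62 and 6.61 for Dock10. Ppargc1b, a coactivator of nuclear receptors in mitochondrial metabolism, lay at 3.34 and 4.11 in wild type and 6.16 and 5.29 in homozygotes (2.00, SE 0.41). The dim probe sets of Rimklb and Lgr5 did not all follow, with 0.02 to 2.42 for Rimklb and 0.03 for Lgr5.

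The remaining higher genes were expressed at lower levels or in special cell types. Tenomodulin (Tnmd), a membrane protein of tendon cells, lay at 8.03 and 8.53 in wild type, 8.71 and 8.73 in the heterozygotes, and 9.70 and 9.52 in homozygotes (1.33, SE 0.25). Lyl1, a transcription factor of blood and endothelial cells, lay at 4.47 and 4.49 in wild type, 4.71 and 4.81 in the heterozygotes, and 5.64 and 5.65 in homozygotes (1.17, SE 0.21). Tcf21, a transcription factor of organ mesenchyme and fibroblast precursors, lay at 4.02 and 4.90 in wild type, 4.64 and 4.93 in the heterozygotes, and 5.67 and 6.0 in homozygotes (1.37, SE 0.34), but a dim second probe set gave -0.28. In Tnmd, Lyl1 and Tcf21 the homozygotes were close to each other and the heterozygotes lay nearer to the wild type. Casp1, the protease of the inflammasome, differed by 1.43 (SE 0.32), the myeloid receptor gene Cd200r4 by 1.42 (SE 0.32) and the adenylyl cyclase Adcy4 by 0.98 (SE 0.23). For Casp1, homozygote 1 lay at 5.87 and homozygote 2 at 5.01, so the difference with homozygote 2 alone was 1.00.

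Lower genes included enzymes and a regulator of limb and skull development. Aldh1a7, an aldehyde dehydrogenase close in sequence to the retinaldehyde dehydrogenase Aldh1a1, lay at 8.65 and 8.51 in wild type, 7.09 and 6.60 in the heterozygotes, and 6.76 and 7.41 in homozygotes (difference -1.49, SE 0.31). Msx2, a homeobox repressor of limb bud and skull mesenchyme, lay at 7.38 and 6.69 in wild type, 6.01 and 5.42 in the heterozygotes, and 5.24 and 5.75 in homozygotes (-1.54, SE 0.36, with -1.26 from a dim probe set). Gstt2, a glutathione transferase, lay at 6.17 and 6.39 in wild type, 5.37 and 5.58 in the heterozygotes, and 5.36 and 5.27 in homozygotes (-0.96, SE 0.22). In these 3 genes the heterozygote cultures lay with the homozygotes, below both wild types. Of the 15 described genes lower in homozygotes, both heterozygotes lay nearer to the homozygote mean for 3 and nearer to the wild-type mean for 9. Of the 15 higher genes these counts were 7 and 7.

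Genes of membrane proteins were also among the lower ones. Cdh3, or P-cadherin, a cell adhesion protein of epithelia and hair follicles, lay at 5.78 and 6.12 in wild type and 5.12 and 4.68 in homozygotes (-1.05, SE 0.26). Lgr6, a second R-spondin receptor and relative of Lgr5, lay at 5.62 and 5.15 in wild type and 4.40 and 3.99 in homozygotes (-1.19, SE 0.27). A dim second Lgr6 probe set gave -0.23, with arrays that overlapped. Pllp, a myelin proteolipid, differed by -1.12 (SE 0.27), the citrate carrier Slc13a5 by -1.0 (SE 0.25), the serine protease Tmprss6 by -1.02 (SE 0.26) and Tmem158, a membrane protein induced by Ras, by -1.12 (SE 0.23). For Cdh3, Lgr6, Pllp, Slc13a5, Tmprss6 and Tmem158 the heterozygotes lay with the wild type, and the arrays of both genotypes did not overlap. Tmem158 was the brightest, at 7.30 and 7.19 in wild type and 6.03 and 6.21 in homozygotes, but its dim probe sets gave 1.82 and -1.01.

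The other lower genes were dim or had probe sets that disagreed. Mtm1, a lipid phosphatase of endosomes, lay at 7.73 and 7.43 in wild type and 6.32 and 6.21 in homozygotes (-1.32, SE 0.23), whereas 2 more probe sets gave -1.5 and 0.63. Dnajc28 differed by -1.14 (SE 0.27), but its other tested probe set gave 1.5 and the mean of both 0.18. Parpbp, an inhibitor of homologous recombination, differed by -0.99 (SE 0.25), with 0.51 from another probe set. Fam71f1 and Ooep, both known from germ cells or early embryos, lay at 4.04 and 4.03 and at 4.14 and 4.22 in homozygotes, against 5.61 and 5.70 and 5.74 and 5.13 in wild type.

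**Figure D2:**
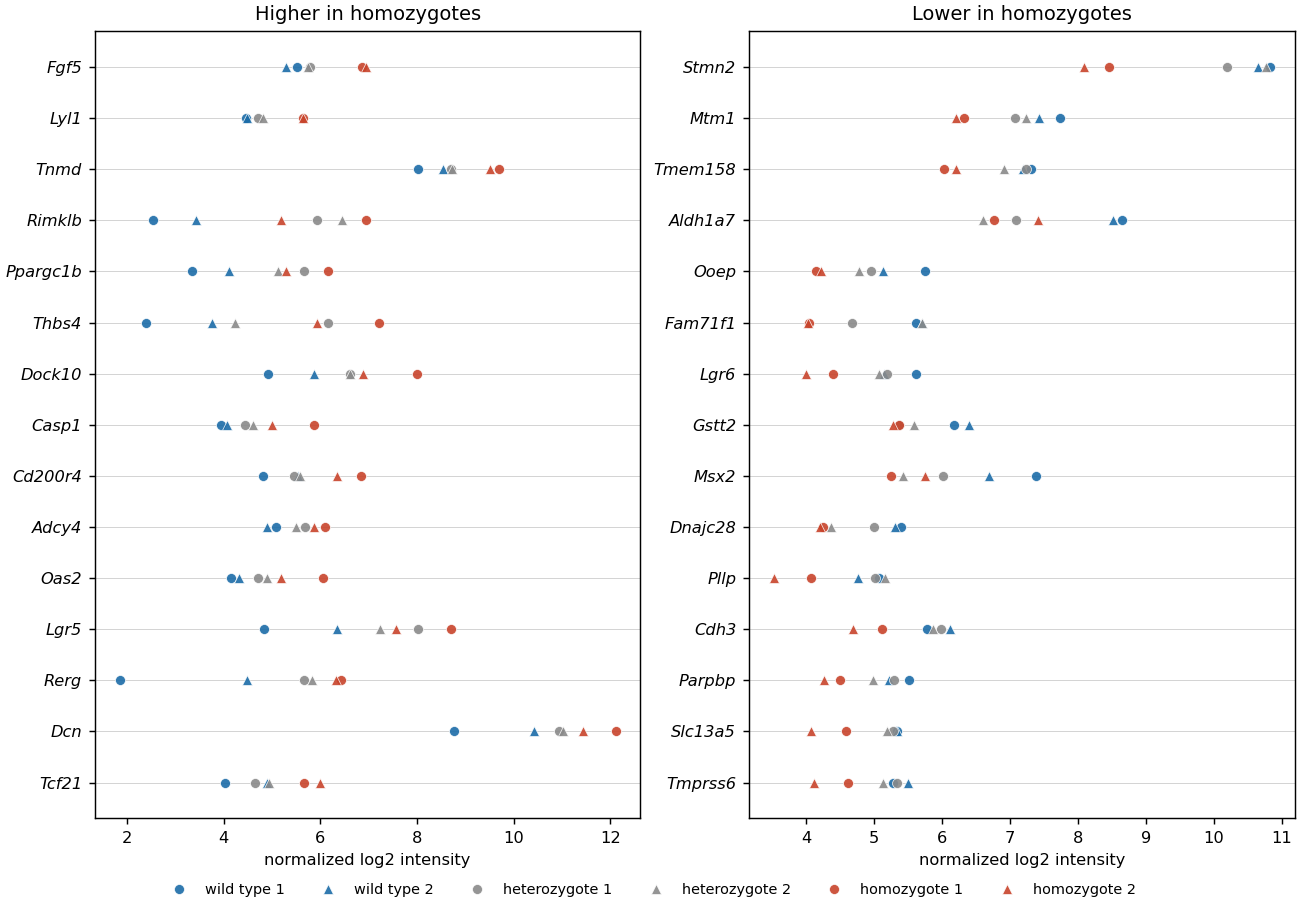
Level of the 15 described genes in each direction on every array (horizontal axis, normalized log2 intensity), with 1 marker for each array and the genes ordered by p-value. The homozygote and wild-type markers do not overlap in any row, which was part of the choice of the genes, while the grey heterozygote markers lie with the wild type in some rows (Stmn2, Fgf5, Cdh3) and with the homozygotes in others (Rimklb, Aldh1a7, Gstt2).

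Beyond single genes, lists of genes were described by how many members were higher or lower and by the median difference. The lists are descriptions without a test of their own, limma called 0 of their genes, and each count is to be read against the shares of all genes given above. Of 39 lists with a median, 19 kept its sign under every alternative processing that gave a median and with every array left out in turn. Of these 19, the epithelial and sex-linked lists had a median in only 11 of 12 settings. The medians ranged from 1.19 for macrophage markers to -0.48 for neural crest, Schwann and neuronal genes, leaving aside the sex-linked genes.

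**Figure D3:**
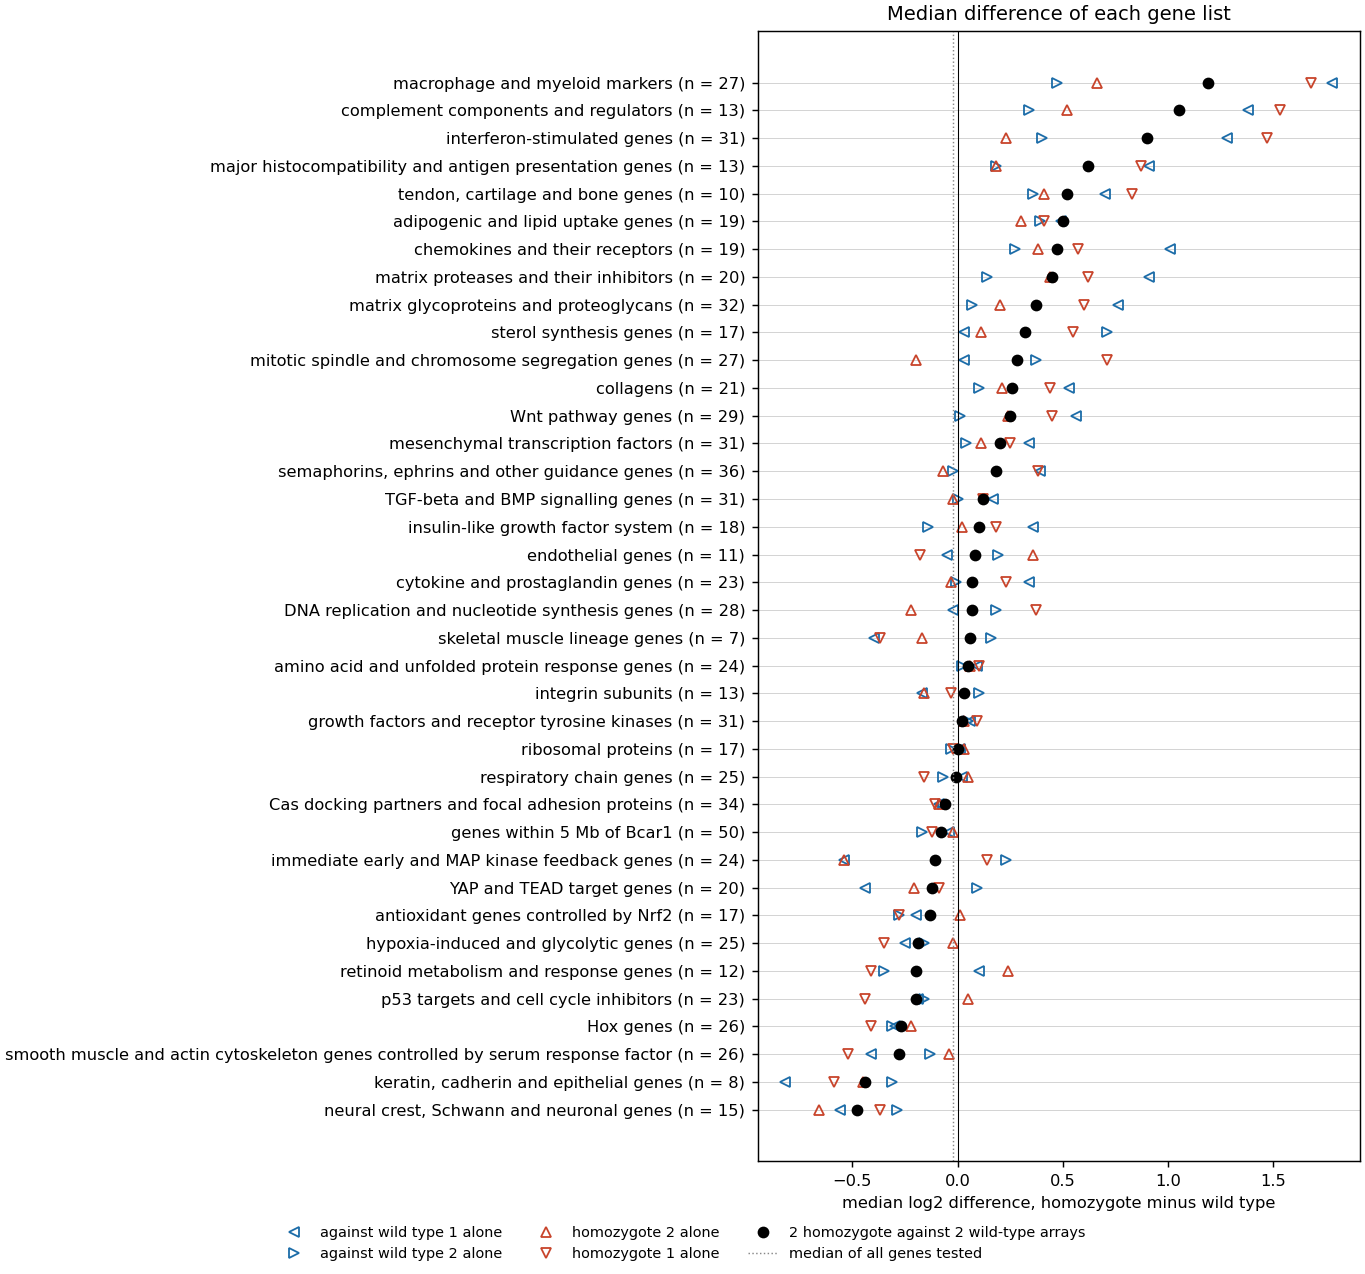
Median log2 difference, homozygote minus wild type, of each gene list with its number of tested genes (horizontal axis). Black points use all 4 arrays, blue triangles compare both homozygotes with 1 wild type alone, red triangles compare 1 homozygote alone with both wild types, and the dotted line is the median of all genes (-0.02). Sex-linked genes and lists with under 3 tested genes are left out. Of the lists drawn, the macrophage, complement and interferon lists have the largest medians and also the widest spread between the triangles, and the mitotic genes lie on opposite sides of 0 for the 2 homozygotes.

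Partners of Cas and adhesion proteins showed small differences. Of 34 tested members, 12 were higher and 22 lower, and the median was -0.06. The arrays did not overlap for 3 higher (8.82%) and 5 lower (14.7%), against 12.5% and 14.3% over all genes, so these counts did not set the list apart. Rapgef1, the exchange factor for Rap that Crk brings to Cas, lay at 8.14 and 7.81 in wild type and 7.24 and 7.50 in homozygotes (-0.60, SE 0.26). Paxillin (Pxn), the adhesion scaffold, lay at 9.87 and 9.90 in wild type and 9.07 and 9.72 in homozygotes (-0.49, SE 0.29), and Git1, which binds paxillin, differed by -0.46 (SE 0.22). These 3 were among the 5 lower genes whose arrays did not overlap. Crk (-0.02), Crkl (-0.01) and Elmo2 (0.00) were at nearly equal levels. Src differed by -0.27 (SE 0.29), Fyn by -0.41 (SE 0.34) and Dock1, the Rac exchange factor that works with Elmo proteins, by 0.12. Of 13 integrin subunits, 7 were higher and 6 lower. Itga5, the fibronectin receptor chain, lay at 9.45 and 8.03 in wild type and 7.80 and 8.08 in homozygotes (-0.80, SE 0.47), so its difference came from wild type 1.

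Genes of the contractile apparatus were mostly lower, and homozygote 1 was the lowest array. These genes encode smooth muscle and stress fibre proteins and are controlled by serum response factor (Srf). Of 26 tested, 23 were lower and 3 higher, with a median of -0.28. The arrays did not overlap for 3 lower genes (11.5%) and 2 higher (7.69%), against 14.3% and 12.5% over all genes, so these counts did not set the list apart. Homozygote 1 was the lowest of the 4 arrays for 20 genes and wild type 1 the highest for 21. Homozygote 2 lay above wild type 2 for 22 of the 26, so for most genes the 2 homozygotes were on opposite sides of wild type 2. With homozygote 2 alone the median was -0.04, and against wild type 2 alone it was -0.13. Calponin (Cnn1), which binds actin and tropomyosin, lay at 10.96 and 9.95 in wild type and 7.45 and 10.64 in homozygotes 1 and 2. Fhl1, a LIM-domain protein of muscle and stress fibres, was the member with the smallest p, at 12.04 and 11.44 in wild type, 11.68 and 11.62 in the heterozygotes, and 10.49 and 11.27 in homozygotes (-0.85, SE 0.34). Lmod1, an actin nucleator of smooth muscle, differed by -0.71 (SE 0.41), and Mrtfa, the actin-regulated coactivator of Srf, by -0.40 (SE 0.21).

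The CArG box is the sequence to which serum response factor binds. It was searched on both strands in the 250 bases upstream of the start of each gene, in RefSeq promoters of the GRCm38.p6 build. It was found for 7 of the 22 contractile genes with a promoter there (31.8%) and for 132 of 9240 tested genes (1.43%). A match is a description of the sequence and not evidence of binding. The windows of Fhl1, of the myosin light chain Myl9 and of the adhesion protein vinculin (Vcl) are shown because their genes are members of this group. They lie at chrX:56779561-56779610, chr2:156775283-156775332 and chr14:20929151-20929200, each on the plus strand, and capitals mark the element.
Fhl1: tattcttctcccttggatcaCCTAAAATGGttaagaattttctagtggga
Myl9: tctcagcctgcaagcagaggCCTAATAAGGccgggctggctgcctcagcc
Vcl: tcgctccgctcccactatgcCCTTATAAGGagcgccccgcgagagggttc
The element ended 92 bases from the start site in Fhl1, 151 in Myl9 and 217 in Vcl. Myl9 lay at 12.85 and 12.39 in wild type and 11.78 and 12.75 in homozygotes (-0.36, SE 0.37), with homozygote 1 lowest and homozygote 2 between the wild types, and Vcl differed by -0.23.

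Targets of the coactivators YAP and TAZ, which respond to stretch and cell shape, had 14 of 20 members lower, with a median of -0.12 that was 0.09 against wild type 2 alone. Ankrd1, a target much used as a reporter of this pathway, lay at 10.89 and 7.33 in wild type and 7.19 and 7.70 in homozygotes, so wild type 1 alone was high. For Ccn2, or connective tissue growth factor, wild type 1 was again highest but wild type 2 lowest, at 13.32 and 11.92 in wild type and 12.25 and 12.59 in homozygotes. Immediate early genes and feedback regulators of MAP kinase had 14 of 24 lower, with a median of -0.11. The sign turned with the array left out: the median was 0.23 against wild type 2 alone, -0.54 against wild type 1 alone, -0.54 with homozygote 2 alone and 0.14 with homozygote 1 alone. Fos was at 10.55 in homozygote 1 and 7.58 in homozygote 2.

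Matrix genes had higher means in homozygotes in the main, with wild type 1 the only clearly low array. Of 32 glycoproteins and proteoglycans, 23 were higher and 9 lower, with a median of 0.37, and the arrays did not overlap for 8 higher genes and 1 lower. Wild type 1 was the lowest of the 4 arrays for 23 of them. Against wild type 2 alone the median was 0.07. Besides decorin, periostin (Postn), a matrix protein of tendon, periosteum and wounds, lay at 11.26 and 12.03 in wild type, 12.76 and 12.74 in the heterozygotes, and 12.78 and 12.67 in homozygotes (1.08, SE 0.30, 0.69 against wild type 2 alone). Lumican (Lum), a collagen-binding proteoglycan of the decorin family, lay at 7.39 and 9.91 in wild type, 10.37 and 10.90 in the heterozygotes, and 12.32 and 9.96 in homozygotes (2.49, SE 1.01). Asporin (Aspn), of the same family, lay at 7.69 and 9.82 in wild type and 10.64 and 10.20 in homozygotes (1.66, SE 0.65). Homozygote 2 lay within 0.05 of wild type 2 for lumican, so the difference rested on wild type 1 and homozygote 1. In Postn and Aspn the heterozygotes lay with the homozygotes.

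Collagens followed the same order. Of 21 tested, 16 were higher and 5 lower, with a median of 0.26 and 0.10 against wild type 2 alone. Wild type 1 was the lowest array for 14, and homozygote 2 lay below wild type 2 for 12. Col6a3, a chain of the microfibril-forming collagen VI, lay at 8.87 and 10.32 in wild type, 11.02 and 11.54 in the heterozygotes, and 11.83 and 10.74 in homozygotes (1.69, SE 0.57). The other chains of collagen VI, Col6a1 and Col6a2, differed by 1.24 and 1.32, with homozygote 2 just below wild type 2 in both. Col12a1, which lies on the surface of collagen fibrils, differed by 0.99 (SE 0.36) and Col16a1 by 0.78 (SE 0.29), both with arrays that did not overlap. The basement membrane chains Col4a1 (-0.03) and Col4a2 (0.06) were at nearly equal levels.

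Matrix proteases and their inhibitors had 18 of 20 members higher, with a median of 0.45 and 0.14 against wild type 2 alone. The arrays did not overlap for 8 higher genes (40.0%) and 1 lower (5.0%), against 12.5% and 14.3% over all genes. Adamts9, which cuts versican and aggrecan, lay at 5.52 and 5.15 in wild type, 7.20 and 6.83 in the heterozygotes, and 7.37 and 6.19 in homozygotes (1.44, SE 0.42). Adamts5, the main aggrecan-cutting enzyme, differed by 0.72 (SE 0.25) and Adamts1 by 0.90 (SE 0.33). In these 3 genes both wild-type arrays lay below the other 4. Timp3, an inhibitor of these enzymes, differed by 0.97 (SE 0.43), and Mmp14, the membrane-bound collagenase, by 0.56 (SE 0.31).

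Macrophage markers had the largest median of the lists of other cell types. Of 30 listed, 27 passed the intensity filter and all 27 lay above wild type on average (median 1.19). The arrays did not overlap for 11, all higher (40.7%, against 12.5% over all genes). Homozygote 1 was the highest of the 4 arrays for 25 and wild type 1 the lowest for 26. Homozygote 2 lay above wild type 2 for 11 and below it for 15, so the difference rested on those other 2 arrays. The median was 0.47 against wild type 2 alone and 0.66 with homozygote 2 alone. Summed over all 30 listed markers, with those below the filter included, the intensity was 4450 and 10400 in wild type. It was 8060 and 7390 in the heterozygotes, and 23300 and 10600 in homozygotes. In bulk RNA of a culture, fewer cells of a type and less RNA per cell cannot be told apart.

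The markers with the smallest p had homozygote 2 above wild type 2, unlike 15 of the 27. Lyz2, the lysozyme of macrophages, lay at 10.54 and 11.67 in wild type, 11.59 and 11.43 in the heterozygotes, and 12.87 and 11.78 in homozygotes (1.22, SE 0.49). Msr1, a scavenger receptor, lay at 5.29 and 5.47 in wild type, 4.98 and 5.93 in the heterozygotes, and 8.49 and 6.30 in homozygotes (2.01, SE 0.70). Cybb, the oxidase subunit of phagocytes, lay at 5.39 and 6.50 in wild type and 7.62 and 6.93 in homozygotes (1.34, SE 0.44). Of these, Msr1 kept a clear distance between homozygote 2 and both wild types, while for Lyz2 it was 0.11. For the mannose receptor Mrc1 the homozygotes were at 9.61 and 7.04, and for Fcer1g, a signalling chain of Fc receptors, at 8.90 and 8.17. Mast cell and granulocyte markers were at the floor, with 0 of 16 above the intensity filter.

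Interferon-stimulated genes had 29 of 31 tested members above wild type and a median of 0.90. Their products detect or block viral RNA. The arrays did not overlap for 7 of the 31, all higher (22.6%, against 12.5% over all genes). Homozygote 1 was the highest of the 4 arrays for 26 and wild type 1 the lowest for 26, and homozygote 2 lay below wild type 2 for 22. With homozygote 2 alone the median was 0.23, and against wild type 2 alone 0.40. Relative to the mean of each gene, the list lay at -0.74 and 0.13 in wild type, 0.10 and -0.10 in the heterozygotes, and 1.07 and -0.10 in homozygotes. Only homozygote 1 was thus clearly high. The macrophage list lay in nearly the same order, at -1.02 and 0.29, -0.28 and -0.50, and 1.22 and 0.28, and its part in the interferon list was not tested.

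Oas2, a sensor of double-stranded RNA, was the interferon gene with the smallest p, at 4.16 and 4.32 in wild type, 4.71 and 4.89 in the heterozygotes, and 6.05 and 5.19 in homozygotes (1.38, SE 0.32). Rsad2, or viperin, which blocks viral replication, lay at 4.71 and 4.58 in wild type, 4.16 and 4.96 in the heterozygotes, and 7.0 and 5.51 in homozygotes (1.61, SE 0.52). Ifih1, the RNA sensor also called Mda5, lay at 7.0 and 7.22 in wild type and 8.71 and 7.74 in homozygotes (1.12, SE 0.39). In these 3 genes both homozygotes lay above all 4 other arrays. Most others did not: Ifit3, which binds viral RNA, lay at 7.16 and 8.43 in wild type, 8.47 and 7.91 in the heterozygotes, and 9.92 and 8.18 in homozygotes (1.26, SE 0.66), and Oas1a at 6.90 and 7.73 in wild type and 8.74 and 7.72 in homozygotes (0.91, SE 0.44). Xaf1 stood out from the list in homozygote 2, at 4.60 against 10.28 in homozygote 1 and 9.08 in wild type 2.

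The interferon-stimulated response element, searched as GAAA, any 2 bases and GAAA again on both strands of the same 250 bases, was found for 9 of the 26 listed genes with a promoter (34.6%) and for 278 of 9240 tested genes (3.01%). The windows of Rsad2, Ifit3 and Oas1a are shown because these genes give the range from arrays that do not overlap to arrays that do. They lie at chr12:26456543-26456592 on the minus strand, at chr19:34583353-34583402 and chr19:34583387-34583436 on the plus strand, and at chr5:120907526-120907565 on the minus strand. Each is written in the direction of its gene, and capitals mark the element, which reads as its reverse complement in Rsad2 and Ifit3.
Rsad2: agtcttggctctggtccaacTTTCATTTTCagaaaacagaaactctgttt
Ifit3, upstream: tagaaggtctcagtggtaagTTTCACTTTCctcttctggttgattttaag
Ifit3, downstream: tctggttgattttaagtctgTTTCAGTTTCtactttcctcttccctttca
Oas1a: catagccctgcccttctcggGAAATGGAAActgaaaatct
The Oas1a window holds a second, overlapping match that ends 4 bases from the start site, the one shown ending 10 bases from it. The elements ended 110 bases from the start in Rsad2 and 146 and 112 bases in Ifit3. Rsad2, with arrays that did not overlap, and Ifit3 and Oas1a, with arrays that did, all held the element.

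**Figure D4:**
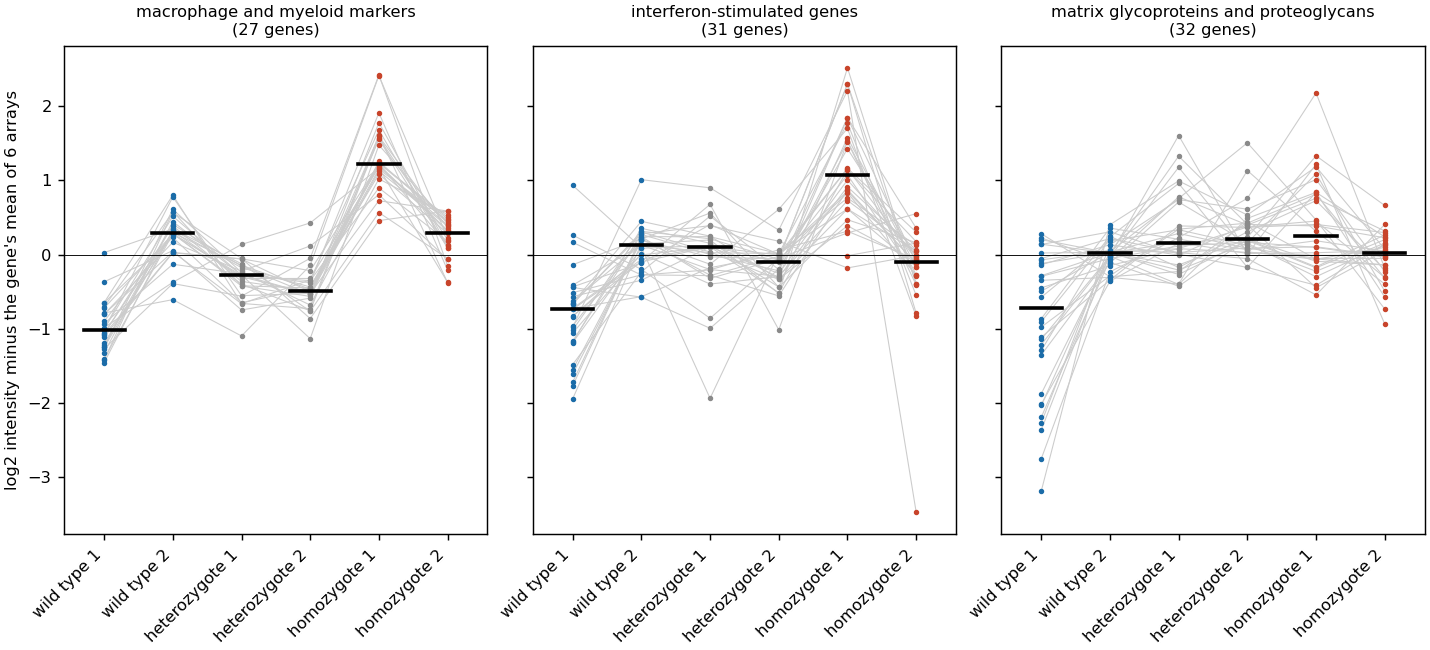
Level of each tested gene of 3 lists on every array, as log2 intensity minus the mean of that gene over 6 arrays (vertical axis). Points are genes, grey lines join a gene across arrays and black bars are the medians of the list. Macrophage and interferon genes are highest in homozygote 1 and lowest in wild type 1 while homozygote 2 lies near wild type 2, and matrix genes stand out only as low in wild type 1.

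Antigen presentation genes and complement followed. Of 13 genes of the class I pathway and its relatives, 12 were higher, with a median of 0.62 and 0.18 against wild type 2 alone. For 10 of the 13, homozygote 2 lay below wild type 2. Psmb8, an interferon-induced proteasome subunit, lay at 5.96 and 7.21 in wild type and 8.87 and 7.41 in homozygotes (1.55, SE 0.61). The class I heavy chain H2-K1 lay at 9.46 and 9.95 in wild type and 11.43 and 9.86 in homozygotes (0.94, SE 0.51). H2-Ab1, a class II chain near the dim limit, had the opposite sign (-0.66, SE 0.23). Of 13 complement genes, 11 were higher, with a median of 1.05 and 0.34 against wild type 2 alone. For 9 of these 13, homozygote 2 lay below wild type 2. C3ar1, a receptor for a complement fragment on myeloid cells, lay at 7.0 and 7.44 in wild type and 9.10 and 7.67 in homozygotes (1.16, SE 0.47). C1s1, the protease of the first component, which fibroblasts make, lay at 5.68 and 8.28 in wild type and 9.33 and 8.26 in homozygotes (1.81, SE 0.83). Its heterozygote levels of 9.16 and 8.73 left wild type 1 as the only low array.

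Chemokines and receptors had 16 of 19 members above wild type and a median of 0.47. The arrays did not overlap for 8, all higher (42.1%, against 12.5% over all genes). Ccl2, which attracts monocytes, lay at 9.43 and 9.88 in wild type, 9.39 and 10.18 in the heterozygotes, and 11.02 and 10.51 in homozygotes (1.11, SE 0.36). Its neighbour Ccl7, which acts on the same receptor, lay at 7.89 and 8.96 in wild type, 8.33 and 8.89 in the heterozygotes, and 9.42 and 9.62 in homozygotes (1.10, SE 0.40). Both homozygotes were above the other 4 arrays in both genes, and homozygote 2 was the higher of the pair for Ccl7. Cxcl5, which attracts neutrophils, lay at 9.11 and 10.70 in wild type, 11.21 and 11.51 in the heterozygotes, and 11.66 and 11.19 in homozygotes (1.51, SE 0.52). Ccl3, Ccl6 and Ccl9, which are made by macrophages, were high in homozygote 1 alone, at 8.19, 10.28 and 10.30, against 5.46, 5.35 and 7.39 in homozygote 2. Cytokine and prostaglandin genes had no common direction, with 12 of 23 higher and a median of 0.07.

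Genes of fat cells and lipid uptake had 15 of 19 members above wild type and a median of 0.50, and the arrays did not overlap for 8 higher and 2 lower. Lipoprotein lipase (Lpl), which frees fatty acids from lipoproteins, lay at 7.55 and 8.91 in wild type, 9.59 and 8.72 in the heterozygotes, and 11.52 and 9.97 in homozygotes (2.51, SE 0.66, 5.71-fold). It was 1.83 against wild type 2 alone and 1.74 with homozygote 2 alone. Ebf1, a transcription factor of fat cell precursors, lay at 6.40 and 7.18 in wild type, 8.43 and 7.68 in the heterozygotes, and 8.29 and 7.65 in homozygotes (1.18, SE 0.41). Hormone-sensitive lipase (Lipe) differed by 0.69 (SE 0.22), the fatty acid carrier Fabp5 by 0.66 (SE 0.27), Fabp4 by 0.55 (SE 0.26) and the regulator of fat cell formation Pparg by 0.86 (SE 0.46). In these genes homozygote 2 lay above both wild types. Over the whole list it lay above wild type 2 for 12 of 19 genes and below it for 6, against 11 above and 15 below of 27 macrophage markers. Macrophages also express Lpl, Fabp4 and Fabp5, and their part in these differences was not tested. The fat cell products Adipoq, Retn and Cidec did not pass the intensity filter.

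Sterol synthesis genes had 16 of 17 members above wild type and a median of 0.32. The median was 0.71 against wild type 2 alone, 0.03 against wild type 1 alone and 0.11 with homozygote 2 alone, so it rested on the low level in wild type 2. Homozygote 2 lay above wild type 2 for all 17 and wild type 2 was the lowest of the 4 arrays for 15, so here the low array was wild type 2 and not wild type 1. The arrays did not overlap for 5 members, all higher (29.4%, against 12.5% over all genes). Squalene epoxidase (Sqle), an enzyme that limits the rate of the pathway, lay at 10.07 and 9.35 in wild type, 9.30 and 10.29 in the heterozygotes, and 10.65 and 9.78 in homozygotes (0.50, SE 0.47). Dhcr7, the last enzyme of cholesterol synthesis, lay at 7.20 and 7.77 in wild type, 8.05 and 8.16 in the heterozygotes, and 8.48 and 7.89 in homozygotes (0.70, SE 0.31). In Sqle the arrays of each genotype spanned as much as the genotypes differed.

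Hox genes set the position of a cell along the body, and their paralogous clusters are expressed to different extents along the trunk and limbs. Of 26 tested, 16 were lower and 10 higher. The arrays did not overlap for 12 lower (46.2%) and 3 higher (11.5%), against 14.3% and 12.5% over all genes. All 6 tested genes of the Hoxb cluster were lower, 5 of them with arrays that did not overlap (median -0.80), and so were all 6 of the Hoxc cluster, again 5 without overlap (median -1.0). The Hoxa and Hoxd clusters had medians of 0.14 and 0.13. Hoxc5 lay at 7.71 and 7.24 in wild type, 5.17 and 6.19 in the heterozygotes, and 5.54 and 6.19 in homozygotes (-1.61, SE 0.42). Hoxc8 lay at 8.95 and 8.64 in wild type, 6.36 and 7.57 in the heterozygotes, and 7.22 and 8.02 in homozygotes (-1.18, SE 0.47). Hoxb6 lay at 7.62 and 6.44 in wild type, 5.35 and 6.01 in the heterozygotes, and 5.37 and 5.73 in homozygotes (-1.48, SE 0.44). The heterozygotes lay below both wild types in all 3 genes, and the lowest array of Hoxc5, Hoxc8 and Hoxb6 was heterozygote 1. The Hox median was -0.31 against wild type 2 alone and -0.22 with homozygote 2 alone. Hoxa10 (0.45, SE 0.22) and Hoxd8 (0.63, SE 0.30) were among the 3 genes that were higher without overlap. Hoxd13, the most distal limb gene, lay at 8.67 and 9.56 in wild type and 9.99 and 9.41 in homozygotes.

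**Figure D5:**
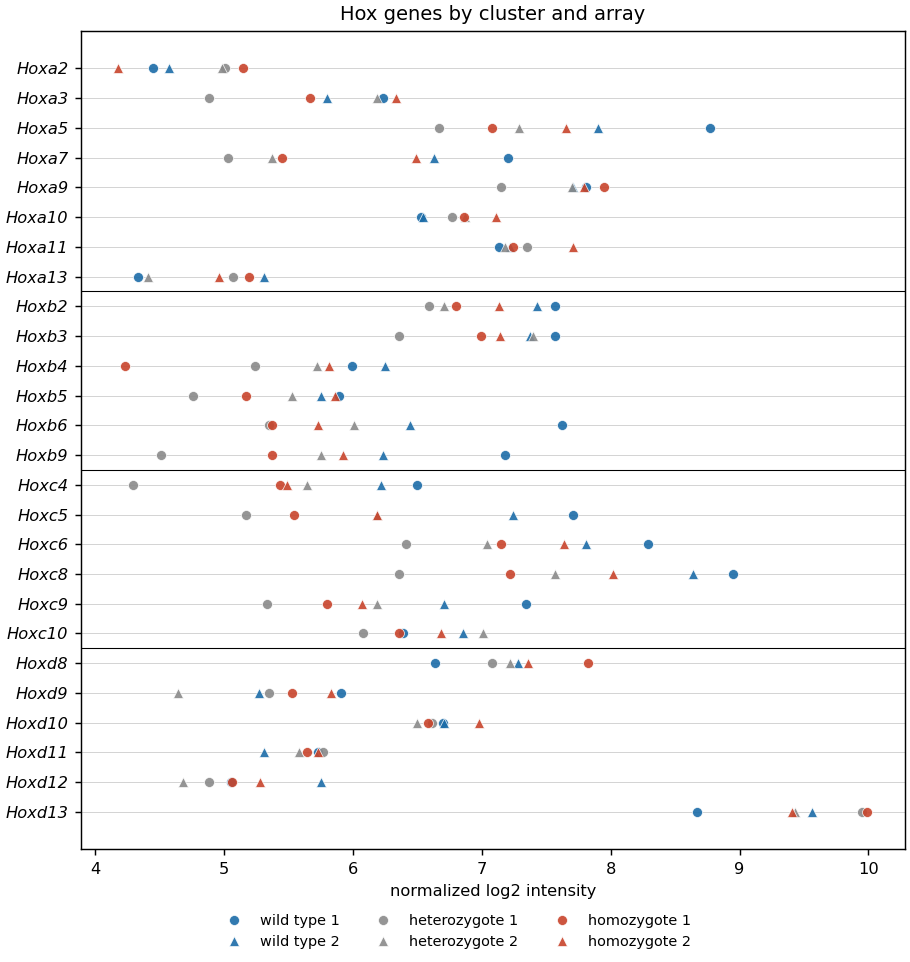
Level of each of the 26 tested Hox genes on every array (horizontal axis, normalized log2 intensity), ordered by cluster and by position in the cluster. Lines separate the Hoxa, Hoxb, Hoxc and Hoxd clusters. In the Hoxb and Hoxc clusters the blue wild-type markers lie to the right of most red homozygote and grey heterozygote markers, while in Hoxa and Hoxd the genotypes mix.

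Other transcription factors of mesenchyme differed in both directions, with 20 of 31 higher and 11 lower and a median of 0.20. The arrays did not overlap for 6 higher (19.4%) and 4 lower (12.9%), against 12.5% and 14.3% over all genes. Besides Msx2 and Tcf21, Foxc2, a forkhead factor of paraxial and vascular mesenchyme, lay at 7.59 and 7.24 in wild type, 6.97 and 7.17 in the heterozygotes, and 6.11 and 6.60 in homozygotes (-1.06, SE 0.27). Foxd1, known from kidney stroma and proximal limb, lay at 5.36 and 6.19 in wild type, 6.52 and 6.28 in the heterozygotes, and 4.94 and 4.11 in homozygotes (-1.25, SE 0.40). Both homozygotes were the lowest of the 6 arrays in these genes. Meox2, of somite and limb muscle precursors, differed by 1.85 (SE 0.62), with wild type 1 lowest at 4.84, and Osr2, of palate and joint mesenchyme, by 2.85 (SE 1.00), with wild type 1 at 1.87.

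Genes of tendon, cartilage and bone had 7 of 10 tested members higher, with a median of 0.52. The arrays did not overlap for 4, all higher (40.0%, against 12.5% over all genes). Homozygote 1 was the highest of the 4 arrays for 8 of the 10, and homozygote 2 lay below wild type 2 for 6. Besides Tnmd, the tendon transcription factor Mkx lay at 5.70 and 5.36 in wild type, 5.83 and 6.26 in the heterozygotes, and 6.40 and 6.28 in homozygotes (0.81, SE 0.26). Comp, a matrix protein of cartilage and tendon from the thrombospondin family, lay at 4.31 and 6.06 in wild type, 7.87 and 6.39 in the heterozygotes, and 7.73 and 6.63 in homozygotes (2.00, SE 0.74). Sox9, the master regulator of cartilage, differed by 0.55 (SE 0.25), while the tendon factor Scx, at 0.49 (SE 0.38), overlapped. Without the intensity filter the list median was -0.13, with the genes below the filter included.

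Markers of the nervous system and its glia were lower for 10 of 15 tested, with a median of -0.48. The arrays did not overlap for 7, all lower (46.7%, against 14.3% over all genes). Homozygote 2 lay below wild type 2 for 14 of the 15. Besides Stmn2, Sox10, the transcription factor of neural crest and Schwann cells, lay at 5.90 and 5.01 in wild type, 4.62 and 5.60 in the heterozygotes, and 2.68 and 4.67 in homozygotes (-1.78, SE 0.70). L1cam, an adhesion molecule of axons, lay at 6.46 and 5.91 in wild type, 6.40 and 5.83 in the heterozygotes, and 5.52 and 5.42 in homozygotes (-0.72, SE 0.31). Erbb3, the neuregulin receptor of Schwann cells, differed by -0.93 (SE 0.51). Fabp7, of glial precursors, had the opposite sign, at 6.04 and 7.18 in wild type and 9.71 and 6.07 in homozygotes. Neuronal markers Dcx, Elavl4, Snap25 and Nefl did not pass the intensity filter, so the defining genes of neurons were dim on these arrays, Stmn2 apart. With the brightest 25% of probe sets alone the list median was 0.38.

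Epithelial genes were lower for all 8 tested, with a median of -0.44 and arrays that did not overlap for 3 (37.5%, against 14.3% over all genes). Besides Cdh3, Perp, a desmosome protein and p53 target, lay at 8.98 and 8.68 in wild type, 8.88 and 8.65 in the heterozygotes, and 7.93 and 8.11 in homozygotes (-0.81, SE 0.24). Both homozygotes were below the other 4 arrays in Perp, as in Cdh3. The keratins Krt5 and Krt14, the adhesion protein Cdh1 and the master regulator Trp63, which define skin epithelium, did not pass the intensity filter. Of endothelial genes, 11 were tested, with a median of 0.08. Cd34, shared by endothelium and fibroblast precursors, lay at 5.02 and 6.11 in wild type, 6.65 and 5.97 in the heterozygotes, and 7.38 and 7.10 in homozygotes (1.68, SE 0.42, 1.13 against wild type 2 alone), whereas Pecam1 and Cdh5, which define endothelium, did not pass the filter. Of skeletal muscle genes only 7 of 26 were tested, with a median of 0.06, and of red cell and liver genes 2.

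Wnt pathway genes had 16 of 29 members higher and 13 lower, with a median of 0.25 and 0.01 against wild type 2 alone. The arrays did not overlap for 8 higher (27.6%) and 4 lower (13.8%), against 12.5% and 14.3% over all genes. Lgr4, the third R-spondin receptor, lay at 8.61 and 8.64 in wild type, 9.63 and 9.31 in the heterozygotes, and 9.71 and 9.25 in homozygotes (0.86, SE 0.26). The secreted Wnt inhibitor Sfrp2 lay at 4.93 and 6.77 in wild type, 10.18 and 7.43 in the heterozygotes, and 10.53 and 7.26 in homozygotes (3.05, SE 1.33), and Sfrp1 differed by 1.53 (SE 0.58). In Sfrp2, heterozygote 1 and homozygote 1 were high together and wild type 1 was lowest. Among ligands, Wnt5a, which acts mainly outside the beta-catenin route, differed by -0.52 (SE 0.27).

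In growth factor families few members stood apart besides Fgf5. Of 31 fibroblast growth factor, receptor kinase and related genes, 18 were higher and 13 lower, with a median of 0.02. Homozygote 2 lay above wild type 2 for 12 of the 31 and below it for 19. The receptor Pdgfra differed by 1.75 (SE 0.80), but its arrays overlapped. Hgf, the ligand of Met, lay at 5.44 and 6.28 in wild type, 7.01 and 6.24 in the heterozygotes, and 7.02 and 6.94 in homozygotes (1.12, SE 0.38). Igf1, the insulin-like growth factor, lay at 7.04 and 9.44 in wild type, 9.97 and 9.46 in the heterozygotes, and 10.83 and 9.99 in homozygotes (2.17, SE 0.76, 0.97 against wild type 2 alone). The 18 genes of the insulin-like growth factor system had a median of 0.10. Of 31 genes of transforming growth factor beta and bone morphogenetic protein (BMP) signalling, 17 were higher, with a median of 0.12. Id4, a target of BMP signalling, differed by 0.95 (SE 0.32) and the receptor Tgfbr1 by 0.72 (SE 0.27), while the activin antagonist follistatin (Fst) differed by -0.68 (SE 0.24) and Ltbp1, which stores the growth factor in the matrix, by -0.75 (SE 0.29). Among 36 guidance genes with a median of 0.18, the ephrin receptor Epha3 lay at 7.20 and 8.34 in wild type, 9.41 and 9.27 in the heterozygotes, and 9.34 and 9.12 in homozygotes (1.46, SE 0.39). In Epha3 the heterozygotes were as high as the homozygotes.

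Cell cycle genes separated the 2 homozygotes from each other and not the genotypes. Of 27 mitotic genes, 24 were higher and 3 lower, with a median of 0.28, but the arrays did not overlap for 0 of them. Homozygote 1 was the highest of the 4 arrays for 24, and the median was -0.20 with homozygote 2 alone. Mki67, the antigen used to count dividing cells, lay at 8.07 and 7.79 in wild type, 8.47 and 8.88 in the heterozygotes, and 9.58 and 7.83 in homozygotes (0.77, SE 0.55). Top2a, which untangles sister chromatids, lay at 8.89 and 8.38 in wild type and 9.91 and 8.45 in homozygotes. Homozygote 2 lay between the wild types in both. DNA replication genes had a median of 0.07, and p53 targets and cell cycle inhibitors one of -0.20, which was 0.05 with homozygote 2 alone.

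Stress and metabolic genes had small median differences. Of 17 antioxidant genes controlled by the factor Nrf2, 13 were lower, with a median of -0.13 that was 0.01 with homozygote 2 alone. The arrays did not overlap for 6 lower (35.3%) and 1 higher (5.88%), against 14.3% and 12.5% over all genes. For 14 of the 17, homozygote 2 lay below wild type 2. Hmox1, which breaks down heme, lay at 10.56 and 10.48 in wild type, 10.09 and 9.25 in the heterozygotes, and 9.26 and 9.93 in homozygotes (-0.92, SE 0.36), and Txnrd1, a thioredoxin reductase, differed by -0.65 (SE 0.25). Of 25 hypoxia and glycolysis genes, 19 were lower, with a median of -0.19 that was -0.02 with homozygote 2 alone. Egln3, an oxygen-sensing hydroxylase, differed by -1.36 (SE 0.62). Retinoid genes had a median of -0.20 and amino acid and unfolded protein response genes one of 0.05. Crabp1, the carrier of retinoic acid, lay at 9.13 and 10.56 in wild type and 11.32 and 10.96 in homozygotes (1.30, SE 0.49). Ribosomal protein genes, with a median of 0.00 and values from -0.11 to 0.09, and respiratory chain genes, with a median of -0.01, lay where the median of all genes did.

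Genes close to Bcar1 on its chromosome were counted because they are inherited together with the deleted allele. Within 5 Mb in the RefSeq table of GRCm38.p6, 50 genes were tested, of which 20 were higher and 30 lower, with a median of -0.08. The arrays did not overlap for 5 higher genes (10.0%, against 12.5% over all genes) and 12 lower genes (24.0%, against 14.3%).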

How the data were processed

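Expression was measured on 6 Affymetrix arrays of total RNA, 1 embryo culture each. The deposited values are 1 linear intensity per probe set and array. Not given in the sources used here were the scanner software, the summary method and any scaling by the authors. Array medians lay between 21.9 and 27.3 and the highest values between 15930 and 17154. Here 1.78, the 10th percentile of all values, was added, log2 taken and the arrays quantile normalized. Of 45101 probe sets, 64 controls were left out and 22519, those with a mean above the median (4.57), were tested. Limma 3.58.1 in R 4.3.3 fitted 3 genotype means with 3 residual degrees of freedom, and p-values were adjusted by Benjamini-Hochberg over all tested probe sets. Symbols came from the platform annotation: 34945 probe sets had 1, 932 several and 9160 none.

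The members and lists were chosen with earlier results of these data known. Described genes are Bcar1, Efs, Cxcr4 and, since none passed the threshold, the 15 in each direction with the smallest p among genes whose arrays do not overlap, without predicted genes. Up to 4 members of each list were taken by smallest p, and further members where a list is described by array. Egfl6 and the genes with a gap of at least 1 were chosen after their values were seen. On simulated data with 50 genes at each difference, 0 genes at 1, 20 at 2, 38 at 3 and 41 at 4 log2 units were called. Alternatives were no quantile normalization, median scaling, a pseudocount of 16, other filters, the 4 arrays alone, a replicate block, the mean of the probe sets of a gene and each array left out.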

Additional observations from a re-analysis of the deposited data

How the results depend on the processing

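The call of 0 probe sets by limma held under every alternative run. With the replicate number as a block it was also 0, with 321 probe sets higher and 257 lower at an unadjusted p under 0.05. Embryos of different genotypes share only that number, and no pairing was assumed. Without wild type 2 the smallest adjusted p was 0.0538. The number of arrays limits the precision, since differences of 1 log2 unit were not recovered in the simulation.

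Where values moved, the cause was not tested. Counts of genes without overlap were 2407 higher and 2914 lower with no filter, 813 and 898 with the brightest 25%, and ranged from 2924 to 4016 and from 2726 to 4475 with each array left out, which leaves fewer arrays to overlap.

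Without quantile normalization the list median was -0.07 for ribosomal and -0.14 for respiratory chain genes. With median scaling these were -0.11 and -0.18, and it was -0.15 for Cas partners and -0.05 for the unfolded protein response. With a pseudocount of 16 fat cell genes were at 0.37. With no filter they were at 0.42, skeletal muscle at -0.16 and tendon at -0.13. With the brightest 25% they were at 0.24, integrins at -0.27, cytokines at 0.42, neural genes at 0.38 and Wnt genes at 0.86. With the mean of probe sets the medians were -0.12 for Cas partners, 0.33 for fat cell genes, -0.26 for integrins and 0.09 for growth factors.

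With each array left out, list medians ranged from -0.16 to 0.05 for the respiratory chain, 0.30 to 0.49 for fat cell, -0.40 to 0.16 for skeletal muscle, 0.01 to 0.56 for Wnt, 0.34 to 1.53 for complement, -0.28 to 0.01 for Nrf2, -0.02 to 0.17 for transforming growth factor, -0.14 to 0.36 for insulin-like growth factor, -0.07 to 0.39 for guidance, 0.31 to 3.02 for sex-linked and -0.17 to -0.02 for neighbouring genes. They ranged from 0.07 to 0.76 for matrix glycoproteins, 0.14 to 0.91 for proteases, -0.44 to 0.09 for YAP targets, 0.27 to 1.01 for chemokines, -0.82 to -0.31 for epithelial, -0.22 to 0.37 for replication, -0.44 to 0.05 for p53, -0.18 to 0.36 for endothelial, -0.35 to -0.02 for hypoxia and -0.41 to 0.24 for retinoid genes.

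Of single genes, Efs turned to 0.10 without wild type 2 and 0.17 without homozygote 1, with a range from -0.22 to 0.17, and Dnajc28 to 0.18 with the mean of its probe sets. With a pseudocount of 16, which shrinks differences of dim genes, the difference was 2.26 for Thbs4, 1.93 for Rerg, 1.90 for Rimklb, 1.29 for Ppargc1b, 0.94 for Casp1, -0.65 for Pllp, -0.66 for Slc13a5, -0.75 for Dnajc28, -0.78 for Lgr6, -0.83 for Ooep and -1.07 for Fam71f1, and it kept its sign for these and the other described genes.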
